A study of Mus musculus with 27 samples.

Results

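Bone marrow-derived macrophages (BMDM) that had never met a Toll-like receptor (TLR) ligand were compared with BMDM that had met the TLR2 ligand Pam3CSK4 and were then given it a second time. The comparison rests on 6 of the 27 arrays of the series, 3 of naïve cells and 3 of re-stimulated cells, each a 1-colour Agilent expression array of total RNA from 1 culture. The cells came from the bone marrow of female C57BL/6 mice of 6 to 8 weeks and were grown in medium conditioned by L929 cells, which supplies the macrophage growth factor. Naïve cells stayed untreated. Re-stimulated cells received Pam3CSK4 at 100 ng/ml for 24 h, were washed and rested, and received 100 ng/ml again for 4 h before RNA was taken. The 21 other arrays hold cells given LPS, CpG, Pam3CSK4 or Poly(I:C) once for 4 h (acute) or by the same repeated schedule. Of the 55681 probes that are not controls, 27945 passed the scanner's test of signal well above local background in 2 or more replicates of naïve or re-stimulated cells and were tested, and they stand for 14022 named genes. At the edge of that rule, 2675 probes passed on exactly 2 arrays of a group, 14605 probes passed on no more than 1 array of each group and were left out, and 13131 passed on none of the 6 arrays. Of the 14605, 13074 were above background on naïve replicate 3 alone.

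Pam3CSK4 is a synthetic triacylated lipopeptide that mimics bacterial lipoproteins. It binds TLR2 paired with TLR1, and the signal runs through the adapter MyD88, the IRAK kinases and TRAF6 to NF-κB and the MAP kinases, which switch on cytokine, chemokine and feedback genes. A first exposure leaves macrophages with lasting changes, so that on a second exposure some genes respond less, a state called tolerance, while others respond as before or more. The comparison with naïve cells asks where the transcriptome stands after the whole schedule, first and second exposure together, and it cannot separate what remained from the first 24 h from what the last 4 h added.

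The cells carried macrophage transcripts on all 6 arrays. All 8 measured macrophage markers (Emr1, Csf1r, Cd68, Itgam, Fcgr1, Mertk, Lyz2 and Cd14) were above background on every array, and their summed level lay between 19.56 and 19.61 (log2) in naïve and between 19.60 and 19.76 in re-stimulated cells. Markers of neutrophils were also present, with 10 of 10 above background on at least 2 naïve arrays and 8 of 10 on at least 2 re-stimulated arrays. Their summed level was lower on both replicate 3 arrays (12.12 naïve, 12.15 re-stimulated) than on the other 4 (13.72 to 14.20), so this difference runs between replicates and not between the groups. The defining markers Ly6g and Ltf were above background on 2 of 3 arrays in each group. One naïve array stood apart. On naïve replicate 3, 74.6% of probes were well above background, against 42.1 to 54.3% on the other 24 arrays with deposited values, and its median distance from the other naïve arrays was 0.46 (log2) against 0.27 to 0.35 for the other 5 arrays from theirs. Some inflammatory transcripts were higher on this array than on the other naïve arrays, as given below for each gene they touch. By gene list, 13 of 15 NF-κB genes, 11 of 20 cytokines, 12 of 22 chemokines and 5 of 36 type I interferon genes were higher there. The count over all tested genes was 5667 of 14022. Values without this array are given below for some genes and lists. Why it stood apart was not tested. The labels do not say whether the replicates were separate mice, and the study's methods describe them in 2 ways, so p-values here measure the spread between these cultures. Their number, 3 in a group, limits the precision.

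Re-stimulated cells differed from naïve cells at 1497 probes (5.36% of those tested), called by limma at an adjusted p below 0.05 and a change of at least 1.5-fold. Of these, 730 probes were higher (2.61%) and 767 lower (2.74%) in re-stimulated cells. Scaling each array to its median instead, which moved the median change over all tested probes from 0.0326 to 0.65, gave 1317 higher and 294 lower. With 1 probe per gene, 828 of 14022 genes were called (5.91%), 333 higher (2.37%) and 495 lower (3.53%). These shares of all genes are the background for the counts in gene lists below. Large changes were common on both sides, with 323 called probes at least 4-fold higher and 273 at least 4-fold lower. All 1497 called probes had groups that did not overlap and moved the same way on each of the 3 slides, although 32.6% of all tested probes also had groups that did not overlap. Called probes without a gene symbol numbered 382 and are not described further. Same-numbered arrays shared a slide, and with the slide as a block the 1497 probes kept their direction, but 6 had an adjusted p below 0.05 (0.0215% of those tested). For the 1497 the blocked adjusted p had a median of 0.0649 and a highest value of 0.106. The count was 4205 (16.2% of probes, 18.3% of genes) without naïve replicate 3 and 18 to 494 without any 1 of the other 5 arrays. A single call is therefore tied to the choice of fit and to every array, and the blocked adjusted p is given with each group of genes.

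**Figure D1:**
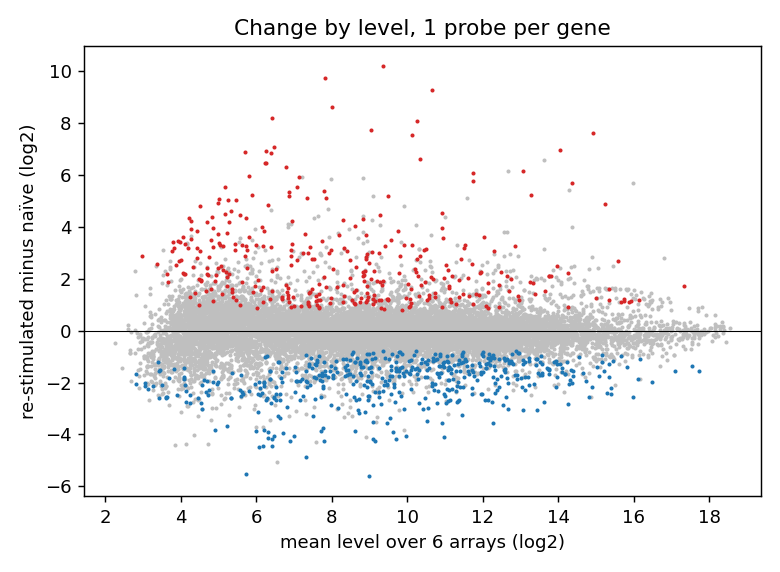
Log2 difference (re-stimulated minus naïve, y axis) against the mean log2 level over the 6 arrays (x axis) for 14022 genes, 1 probe each. Red points are the 333 genes called higher, blue points the 495 called lower and grey points the genes not called. The largest rises reach 10.19 and the largest falls -5.59.

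The 6 probes that stayed below an adjusted p of 0.05 with the slide block were all higher in re-stimulated cells. Il6, Ptgs2 and Tarm1 were among the largest rises and are described with them. The other 3 were chosen after their values were seen. Olr1, a scavenger receptor for oxidised lipoprotein, was at 2.93, 2.71 and 3.29 in naïve replicates 1, 2 and 3 and at 9.43, 9.09 and 9.87 in re-stimulated replicates 1, 2 and 3 (log2 levels, in this order throughout), a difference of 6.48 ± 0.27 (SE, n = 3 a group, blocked adjusted p = 0.0318). Shisa3 differed by 6.88 ± 0.18 (blocked adjusted p = 0.0318). Adora2a, an adenosine receptor gene whose product damps inflammatory signalling, differed by 5.11 ± 0.30 (blocked adjusted p = 0.0445). All 3 were higher on every re-stimulated array than on any naïve array.

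The 12 largest rises among called genes were cytokine, chemokine and acute phase genes for the most part. Cxcl3, which attracts neutrophils through CXCR2, led them. Its level was 2.90, 4.10 and 5.76 in naïve cells and 15.12, 13.47 and 14.74 in re-stimulated cells, a log2 difference of 10.19 ± 0.80 (adjusted p = 0.0104, blocked 0.0546). The naïve values lay near background, with 1 of 3 arrays above it, so the size of the difference is uncertain at its lower end. Il6, the pleiotropic cytokine that drives the acute phase response, was at 2.84, 2.47 and 3.55 in naïve and 13.01, 11.89 and 13.20 in re-stimulated cells, a difference of 9.75 ± 0.45 (adjusted p = 0.00443, blocked 0.0318). Il1b, the precursor of interleukin-1β, was at 4.70, 6.71 and 6.64 and 16.14, 14.84 and 14.89, a difference of 9.27 ± 0.65 (adjusted p = 0.0085, blocked 0.0546). For all 3 genes the lowest re-stimulated array lay far above the highest naïve array.

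Ptgs2 encodes cyclooxygenase-2, the inducible enzyme of prostaglandin synthesis. It was at 3.11, 3.1 and 4.86 in naïve and 12.45, 11.43 and 13.09 in re-stimulated cells (difference 8.64 ± 0.63, adjusted p = 0.00979, blocked 0.0445). Cxcl5 was not well above background on any naïve array and stood at 11.96, 10.32 and 9.28 in re-stimulated cells. On the deposited scale it was at least 277-fold higher against a floor. The floor was, on each naïve array, the lowest level that counts as detected or its own value if that was higher. Under other processing or without 1 array the log2 difference of Cxcl5 ranged from 4.55 to 8.81. Cfb, factor B of the alternative complement pathway, was at 5.67, 6.04 and 6.98 and 14.72, 13.79 and 14.38 (difference 8.07 ± 0.41, adjusted p = 0.00537, blocked 0.0546). The protease inhibitor gene Serpinb2 rose by 7.72 ± 0.78, the myeloid receptor gene Tarm1 by 7.08 ± 0.45 and Rasgrf1, a Ras exchange factor gene, by 6.94 ± 0.39.

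Both serum amyloid A genes among the largest rises were already high on naïve replicate 3. Saa3 was at 9.77, 10.07 and 13.51 in naïve cells and at 18.72 on all 3 re-stimulated arrays, close to the highest deposited value of 18.82, so the scale itself limits its difference of 7.60 ± 0.98. Saa1 was at 9.61, 9.79 and 12.23 and 17.51, 17.59 and 17.44, a difference of 6.97 ± 0.70. Saa1 has close relatives in the genome, and its probe may pick up RNA of more than 1 of them. Cxcl1 showed the same array at the top of the naïve group, with 4.22, 5.73 and 9.10 against 13.81, 12.50 and 15.31 in re-stimulated cells (difference 7.53 ± 1.35, adjusted p = 0.0388, blocked 0.0551).

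The 4 neutrophil-attracting chemokine genes among the calls lie in 1 cluster on chromosome 5. In mm9, the build of the array's annotation, the probe of Cxcl5 is at chr5:91190490-91190549, that of Cxcl3 at chr5:91216694-91216753, that of Cxcl1 at chr5:91321845-91321904 and that of Cxcl2 at chr5:91334534-91334593. Cxcl2 was at 4.85, 6.49 and 9.73 in naïve and 13.71, 12.21 and 14.98 in re-stimulated cells (difference 6.61 ± 1.34, adjusted p = 0.0484, blocked 0.0598). The interleukin-1 family risers Il1a, Il1b, Il1f6 and Il1f9 all have their probes on chromosome 2, between chr2:24048293-24048352 for Il1f9 and chr2:129190347-129190406 for Il1b.

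The sequences before 4 of these genes are shown because they hold a letter match to the NF-κB site, the factor that TLR2 signals to. Each is the 250 bases before the RefSeq start, 5′ to 3′ along the gene (GRCm38.p6), with matches on either strand to GGGA and TTCC set 2 bases apart in capitals. They lie at chr5:90785851-90786100 (Cxcl3), chr5:90890995-90891244 (Cxcl1), chr5:90903649-90903898 (Cxcl2) and chr5:30012864-30013113 (Il6), all on the plus strand.
Cxcl3: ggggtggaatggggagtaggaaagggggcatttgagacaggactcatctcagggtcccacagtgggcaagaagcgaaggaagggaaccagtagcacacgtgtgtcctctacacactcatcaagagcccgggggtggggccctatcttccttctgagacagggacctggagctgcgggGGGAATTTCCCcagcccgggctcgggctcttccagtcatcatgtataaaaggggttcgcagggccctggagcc
Cxcl1: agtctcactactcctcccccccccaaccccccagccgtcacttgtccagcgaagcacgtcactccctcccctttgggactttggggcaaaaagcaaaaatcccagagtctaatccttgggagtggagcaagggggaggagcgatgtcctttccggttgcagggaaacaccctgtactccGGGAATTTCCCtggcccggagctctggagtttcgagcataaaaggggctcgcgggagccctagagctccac
Cxcl2: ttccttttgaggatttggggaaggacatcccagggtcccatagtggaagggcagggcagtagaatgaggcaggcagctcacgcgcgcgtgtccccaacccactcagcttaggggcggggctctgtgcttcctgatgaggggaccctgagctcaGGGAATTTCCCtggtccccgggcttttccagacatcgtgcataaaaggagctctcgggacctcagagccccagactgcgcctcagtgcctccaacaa
Il6: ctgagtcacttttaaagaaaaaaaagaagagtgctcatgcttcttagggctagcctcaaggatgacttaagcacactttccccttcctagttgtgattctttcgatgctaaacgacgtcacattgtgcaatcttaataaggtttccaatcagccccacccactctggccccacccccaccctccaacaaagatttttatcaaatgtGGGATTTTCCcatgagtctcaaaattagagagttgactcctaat
In Cxcl1, Cxcl2 and Cxcl3 the capitals are the same 11 letters, in which matches on both strands overlap. Such a match was found in 12 of 316 windows of genes called higher (3.80%), in 4 of 528 windows of genes called lower (0.758%) and in 397 of all 32851 windows of this length in the table (1.21%). Among the 13842 windows of all tested genes the share was 1.30%. The interferon-type letters, GAAA and GAAA set 2 bases apart, were found in 9 of the 316 windows (2.85%) against 2.98% of all windows and 2.82% of those of tested genes, and the AP-1 letters TGANTCA in 26 (8.23%) against 6.75% and 4.91%. Of the 12 largest rises 10 had a window, and 3 of these held the NF-κB letters (Cxcl3, Il6 and Cxcl1). The windows of Il1b, Ptgs2, Serpinb2, Saa3, Tarm1, Saa1 and Rasgrf1 did not hold them, which says only that these letters are not in this window. RefSeq windows were at hand for 246 genes called higher and 379 called lower. A match is a description of the letters and does not show a bound site.

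**Figure D2:**
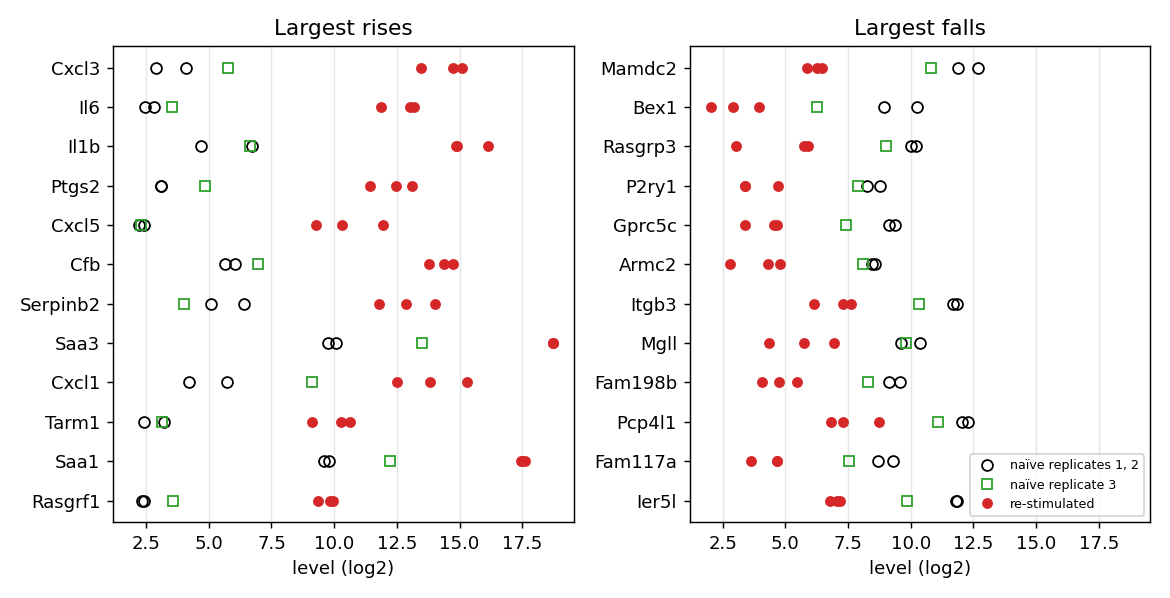
Log2 level on each array for the 12 genes with the largest rise (left) and the 12 with the largest fall (right) among called genes. Open circles are naïve replicates 1 and 2, open squares naïve replicate 3, and filled circles the 3 re-stimulated arrays. That no group overlaps the other was a condition of the choice, and it held for 32.6% of all tested probes. Naïve replicate 3 is the highest naïve array for 8 of the 12 rises and the lowest for 11 of the 12 falls.

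The 12 largest falls named no cytokine or chemokine. Mamdc2, which encodes a secreted MAM-domain protein, was at 12.67, 11.87 and 10.79 in naïve and 5.85, 6.46 and 6.25 in re-stimulated cells, a difference of -5.59 ± 0.49 (adjusted p = 0.0135, blocked 0.0546). Bex1 was at 10.25, 8.95 and 6.28 in naïve cells and above background on no re-stimulated array, at least 40.7-fold lower, with naïve replicate 3 the lowest of its group. Gprc5c, an orphan G protein-coupled receptor gene, was at least 21.9-fold lower and Armc2 at least 21.5-fold lower by the same reckoning. Under other processing or without 1 array the log2 difference reached -2.49 for Gprc5c and -2.28 for Armc2. For Gprc5c 2 of 4 probes were called and all 4 were lower. P2ry1, an ADP receptor, was at 8.77, 8.25 and 7.89 and 3.40, 3.38 and 4.73 (difference -4.47 ± 0.44, adjusted p = 0.0141, blocked 0.0572). Rasgrp3, a Ras exchange factor driven by diacylglycerol, fell by 4.86 ± 0.83 and Itgb3, the integrin β3 chain, fell by 4.26 ± 0.55 on the log2 scale, the latter called by 1 of its 2 probes. The Ras exchange factors Rasgrf1 and Rasgrp3 therefore moved in opposite directions.

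Mgll encodes monoacylglycerol lipase, which breaks down the endocannabinoid 2-arachidonoylglycerol, and fell by 4.25 ± 0.65. Fam198b fell by 4.24 ± 0.47, Pcp4l1 fell by 4.19 ± 0.57, Fam117a fell by 4.17 ± 0.53 and Ier5l fell by 4.17 ± 0.56. For the 12 falls the blocked adjusted p lay between 0.0546 and 0.0932. Naïve replicate 3 was the naïve array nearest the re-stimulated levels for 11 of these 12 genes and for 8 of the 12 largest rises. In bulk RNA, fewer cells of a type and less RNA per cell cannot be told apart for any of these genes.

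Of the machinery that senses the ligand, 1 of 19 tested genes was called, and it was higher, a share near the 5.91% of all genes. Cd14, a co-receptor that hands lipopeptide to TLR2, was at 15.39, 15.49 and 15.71 in naïve and 16.89, 16.44 and 16.87 in re-stimulated cells (difference 1.20 ± 0.21, adjusted p = 0.0367, blocked 0.0706). Tlr2 itself was at 11.66, 12.17 and 13.32 and 14.37, 14.16 and 14.51, a difference of 1.96 ± 0.43 that missed the threshold (adjusted p = 0.0576, 0.00528 without naïve replicate 3). Its partners showed differences of 2.29 ± 0.70 for Tlr1 (adjusted p = 0.115) and 0.82 ± 0.20 for Tlr6 (adjusted p = 0.0718). The adapter gene Myd88 stood at 11.50, 11.71 and 12.35 against 13.02, 13.22 and 13.01 (difference 1.23 ± 0.26, adjusted p = 0.0534). Irak3 encodes IRAK-M, the kinase-dead member that restrains MyD88 signalling. It was at 9.49, 9.88 and 12.95 in naïve and 13.57, 13.70 and 13.05 in re-stimulated cells, and with naïve replicate 3 at the level of the re-stimulated arrays the difference of 2.67 ± 0.91 was not called (adjusted p = 0.141, 0.00326 without that array). Without naïve replicate 3, 6 of the 19 genes were called, all higher, against 7.22% of all genes.

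Among other TLRs and adapters 1 of 10 tested genes was called, and it was higher, against 2.37% of all genes. Ticam2, the bridging adapter of TLR4, was at 4.48, 5.36 and 5.95 and 7.56, 8.16 and 6.97 (difference 2.29 ± 0.47, adjusted p = 0.0488, blocked 0.087). Tlr13, which senses bacterial ribosomal RNA, showed -1.68 ± 0.35 (adjusted p = 0.0526) and Tlr4 -1.18 ± 0.28 (adjusted p = 0.067), both short of the threshold.

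Of 15 tested NF-κB genes 2 were called, both higher, against 2.37% of all genes. The median difference of the 15 was 1.23, and -0.0105 over all 14022 genes. Nfkb2, the p100 subunit precursor, was at 10.67, 11.09 and 11.87 and 12.92, 13.06 and 13.21 (difference 1.85 ± 0.33, adjusted p = 0.0384). The inhibitor gene Nfkbib differed by 1.47 ± 0.22 (adjusted p = 0.0286), by all 3 of its probes. With the slide block their adjusted p were 0.0621 and 0.0572. Nfkbia, the IκBα gene, was at 13.37, 13.69 and 15.53 and 16.43, 16.85 and 16.79 (adjusted p = 0.0634), Bcl3 differed by 1.46 ± 0.62 (adjusted p = 0.209) and Tnfaip3, which encodes the deubiquitinase A20, by 1.43 ± 0.49 (adjusted p = 0.142). Nfkb1 differed by 0.61 ± 0.28 (adjusted p = 0.23). Of the 15 genes 13 were higher on naïve replicate 3 than on the other naïve arrays, by a median of 0.99. Without that array 10 were called, all higher, against 7.22% of all genes.

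Feedback inhibitors of cytokine and MAP kinase signalling were called in 4 of 14 tested members, all higher, against 2.37% of all genes. Socs3, which blocks signalling of the interleukin-6 receptor, was at 7.14, 7.82 and 11.15 in naïve and 14.85, 14.62 and 14.85 in re-stimulated cells, a difference of 6.07 ± 1.02 (adjusted p = 0.0345, blocked 0.0648). Socs1, which acts on interferon receptors, was at 8.10, 7.62 and 7.59 and 11.20, 10.15 and 11.77 (difference 3.27 ± 0.44, adjusted p = 0.024, blocked 0.0582). The phosphatase genes Dusp2 and Dusp16 rose by 2.38 ± 0.34 and 2.28 ± 0.19, the latter by 1 of its 2 probes, and the blocked adjusted p of the 4 were 0.0546 to 0.0725. Zc3h12a, whose product regnase-1 degrades cytokine mRNA, was at 6.97, 7.11 and 9.51 and 10.71, 10.60 and 10.85 and was not called (adjusted p = 0.0686).

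Cytokine genes gave the most calls among the 20 lists, 10 of 20 tested against 2.37% of all genes, with a median difference of 3.08 and none called lower. The median was 1.12 with normexp background correction and 3.45 under median scaling. Without naïve replicate 3, 14 were called higher and 3 lower, against 7.22% and 11.1% of all genes. The fit over all 9 groups called 11 higher and 2 lower. Il1f9 (interleukin-36γ) and Il1a differed by 5.24 ± 0.49 and 5.19 ± 0.52. Csf3 and Csf2, growth factors of granulocytes and macrophages, differed by 5.06 ± 0.77 and 3.21 ± 0.20, and Il1f6 was at least 18.4-fold higher. Of the interleukin-12 chains, Il12b was at 3.02, 3.88 and 3.11 and 7.77, 7.50 and 6.06 (difference 3.78 ± 0.51, adjusted p = 0.0246). Il12a, above background on no naïve array, was at least 9.64-fold higher on the deposited scale. Under other processing or without 1 array the log2 difference of Il12a ranged from 0.91 to 3.59 and that of Il1f6 from 1.25 to 4.67. The last of the 10, Tnfsf9, a ligand of 4-1BB, differed by 2.15 ± 0.35. With the slide block the 10 had adjusted p of 0.0318 to 0.0769.

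Tnf and Il10 were not called, and their naïve arrays were widely spread. Tnf was at 8.998, 9.53 and 13.44 in naïve and 13.97, 13.99 and 15.49 in re-stimulated cells, a difference of 3.82 ± 1.21 (adjusted p = 0.123, 0.00568 without naïve replicate 3). Il10, the main anti-inflammatory cytokine of macrophages, was at 4.73, 5.49 and 8.45 and 9.07, 9.18 and 9.26, a difference of 2.95 ± 0.93 (adjusted p = 0.123, 0.00282 without that array). Il23a and Ifnb1 were above background on at most 1 array of each group and were not tested.

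**Figure D3:**
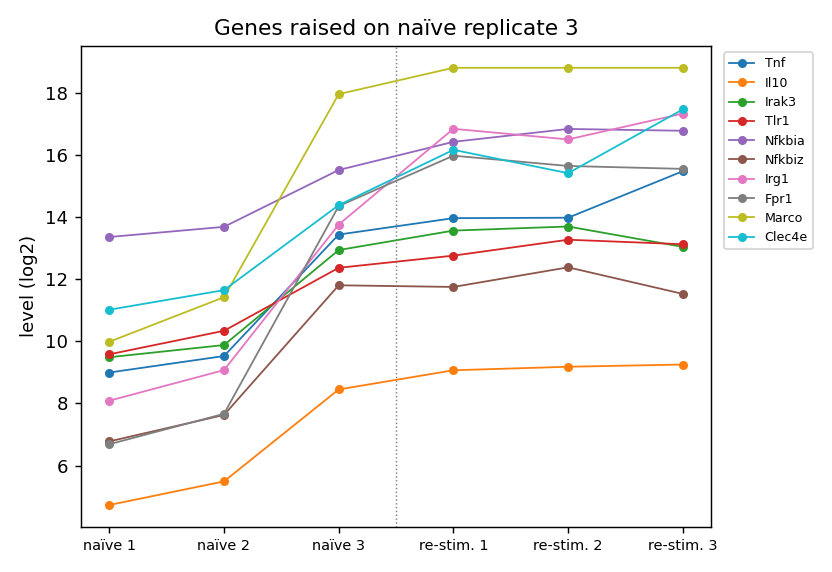
Log2 level on the 3 naïve and 3 re-stimulated arrays (x axis, lines join arrays of 1 gene) for 10 genes that were not called. Their group means differed by more than 2 log2 units. They were chosen, after their values were seen, because they were raised on naïve replicate 3. That each lies above both other naïve arrays there follows from this choice, for Marco, a scavenger receptor gene, at 17.97 against 9.99 and 11.42. Ifit2 and Ccnb2, also not called, were lowest of the naïve arrays there and are not shown.

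Chemokine genes followed, with 9 of 22 tested called higher, against 2.37% of all genes, and none lower, and a median difference of 2.32. The median was 1.46 with normexp background correction and 3.11 under median scaling. Beside the neutrophil attractants above, Ccl5, which attracts T cells, was at 11.33, 11.92 and 11.27 and 16.83, 16.85 and 17.90 (difference 5.68 ± 0.37, adjusted p = 0.00736, blocked 0.0546). Cxcl9, an interferon-inducible ligand of CXCR3, was at least 12.9-fold higher by 1 of its 2 probes. Ccl17, Ccl12 and Ccl2 differed by 3.22 ± 0.52, 3.11 ± 0.42 and 2.26 ± 0.45. The other CXCR3 ligand gene of the list, Cxcl10, was at 6.89, 8.89 and 9.96 and 10.04, 10.44 and 12.83 and was not called (adjusted p = 0.193). Blocked adjusted p for the 9 were 0.0546 to 0.0819.

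Secreted antimicrobial and acute phase proteins gave 5 calls of 16, all higher, against 2.37% of all genes, with a median of 2.60. Lcn2, which withholds iron from bacteria by binding their siderophores, was at 10.60, 11.02 and 8.33 in naïve and 16.99, 15.63 and 15.76 in re-stimulated cells (difference 6.14 ± 0.77, adjusted p = 0.022). Hp (haptoglobin) and Slpi, a leukocyte protease inhibitor, differed by 5.23 ± 0.85 and 4.88 ± 0.64. For the 5, with Cfb and Saa3, the blocked adjusted p were 0.0546 to 0.0746. The formyl peptide receptor gene Fpr1 was at 6.69, 7.67 and 14.36 and 15.99, 15.65 and 15.56 and was not called (adjusted p = 0.124, 0.00107 without naïve replicate 3). Granule genes of the list did not follow the groups. S100a9 was at 15.63, 16.20 and 4.57 in naïve and 14.25, 15.32 and 5.93 in re-stimulated cells and Ltf (lactoferrin) at 10.86, 11.43 and 2.09 and 8.92, 10.62 and 3.33, low on both replicate 3 arrays as the neutrophil markers were.

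Genes of arginine, itaconate and eicosanoid metabolism gave 5 calls of 17, all higher, against 2.37% of all genes. Arg1, arginase 1, was near background in naïve cells (3.18, 3.14 and 2.72) and varied widely among re-stimulated arrays (12.19, 8.72 and 7.56) (difference 6.48 ± 1.14, adjusted p = 0.0374, blocked 0.0646). Nos2, the inducible nitric oxide synthase that competes with arginase for arginine, was at 7.05, 7.28 and 7.88 and 10.07, 9.01 and 10.55 (difference 2.47 ± 0.45, adjusted p = 0.039, blocked 0.0607). The arginine transporter gene Slc7a2 and the citrulline recycling enzyme gene Ass1 differed by 4.23 ± 0.76 and 3.262 ± 0.35. Transcripts for arginine uptake, recycling and both uses of arginine were thus all higher. Irg1, which makes itaconate, was at 8.09, 9.08 and 13.77 and 16.85, 16.51 and 17.34, short of the threshold (adjusted p = 0.0562).

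Glycolysis and the HIF-1 response gave 7 calls of 25, all higher, against 2.37% of all genes, while the respiratory chain gave none of 33. Hif1a was at 10.86, 10.43 and 10.45 in naïve and 13.19, 12.37 and 12.32 in re-stimulated cells (difference 2.05 ± 0.30, adjusted p = 0.0276, blocked 0.0546). Adm and Egln3, transcripts that HIF-1 induces, differed by 4.00 ± 0.42 and 3.47 ± 0.47. The transporters of glucose (Slc2a1) and lactate (Slc16a3) differed by 2.00 ± 0.21 and 2.12 ± 0.36, and the enzymes Pfkl and Pgk1 by 1.77 ± 0.25 and 1.22 ± 0.20. The blocked adjusted p of the 7 were 0.0546 to 0.0669. The median over the glycolysis list was 0.78 and over the respiratory chain list 0.0778, within a range of -0.28 to 0.59 for the latter. Under median scaling the 2 medians were 1.794 and 1.065, which is 1.109 and 0.38 relative to the median of all genes on that scale. No test compared both lists.

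Antioxidant genes driven by NRF2 gave 2 calls of 14, both higher, against 2.37% of all genes. Slc7a11, the cystine transporter, was at 6.97, 6.12 and 6.95 and 11.46, 9.86 and 11.64 (difference 4.31 ± 0.53, adjusted p = 0.0212) and Nqo1 differed by 2.77 ± 0.51 (adjusted p = 0.0403), both with a blocked adjusted p of 0.0546. In the cholesterol list Ch25h, which makes 25-hydroxycholesterol, was higher (5.75, 4.93 and 7.82 against 9.89, 10.08 and 11.37, difference 4.28 ± 0.80, adjusted p = 0.042), and Apoe, a carrier of effluxed cholesterol, was lower (difference -1.38 ± 0.25, adjusted p = 0.0396), though not called under median scaling. Their blocked adjusted p were 0.0546 and 0.0632. The other 17 of the 19 were not called, beside 2.37% of all genes called higher and 3.53% called lower. Synthesis genes such as Fdps (1.71 ± 0.44, adjusted p = 0.0776) and Idi1 (1.62 ± 0.45, adjusted p = 0.094) were higher on naïve replicate 3 than on the other naïve arrays. Without it 12 of the 19 were called higher and 3 lower, against 7.22% and 11.1% of all genes.

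Matrix proteases and their inhibitors were called in both directions, 3 of 16 higher and 3 lower, against 2.37% and 3.53% of all genes. Mmp14 was at 6.91, 8.34 and 9.50 and 11.68, 11.80 and 11.20 (difference 3.31 ± 0.64, adjusted p = 0.0447), and Mmp2, the gelatinase that its product activates, was at least 14.8-fold higher. The third was Serpinb2, an inhibitor of urokinase. The urokinase gene Plau itself fell from 8.92, 9.04 and 8.04 to 3.30, 5.37 and 5.50 (difference -3.94 ± 0.65, adjusted p = 0.0337). Mmp12, macrophage elastase, fell by 2.75 ± 0.30 and Timp2 fell by 2.40 ± 0.26, each by both of its probes. The blocked adjusted p of the 6 were 0.0546 to 0.0811. Under median scaling Mmp12 and Timp2 were not called.

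**Figure D4:**
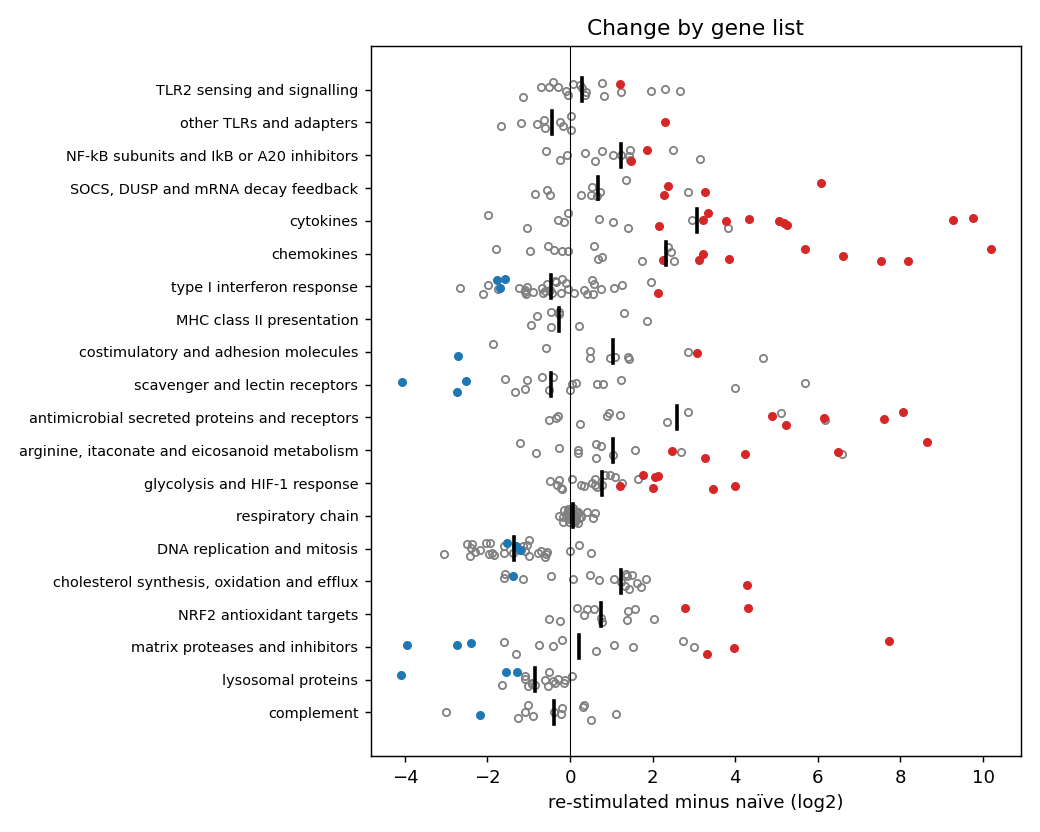
Log2 difference (re-stimulated minus naïve, x axis) of each tested gene in 20 gene lists (rows), with the median of each list as a black bar. Filled red and blue points are genes called higher and lower and open points are genes not called. Cytokine and chemokine genes reach furthest to the right, and 30 of 32 replication and mitosis genes lie left of 0. Of all tested genes 49.3% were above 0.

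In the list of scavenger and lectin receptors 3 of 18 tested genes were called, all lower, against 3.53% of all genes. Olr1, the scavenger receptor called higher above, is not in this list. Mrc1, the mannose receptor, was at 12.001, 12.62 and 11.35 in naïve and 7.78, 9.30 and 6.70 in re-stimulated cells (difference -4.06 ± 0.70, adjusted p = 0.0362, blocked 0.0546). Mertk, which takes up dying cells, was at 11.58, 11.30 and 10.21 and 8.02, 8.15 and 8.72 (difference -2.74 ± 0.41, adjusted p = 0.0294, blocked 0.0743). The lectin gene Clec10a fell by 2.51 ± 0.45. Clec4e, the receptor Mincle, stood at 11.02, 11.65 and 14.39 and 16.17, 15.42 and 17.48 without a call (adjusted p = 0.0712). The list's median was -0.46 on the deposited scale and 0.54 under median scaling, which is -0.14 relative to the median of all genes on that scale. Under median scaling 3 of the 18 were called higher and 3 lower, beside 1317 probes higher and 294 lower over all.

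Of 19 lysosomal genes 3 were called lower, against 3.53% of all genes, and none higher. Differences were below 0 for 18 of the 19 on the deposited scale, while 49.3% of all tested genes were above 0. The median of -0.85 became 0.18 under median scaling. That is -0.51 relative to the median of all genes on that scale. Atp6v0d2, a subunit of the proton pump that acidifies lysosomes, fell most, from 13.65, 13.24 and 12.21 to 8.63, 8.97 and 9.19 (difference -4.10 ± 0.40, adjusted p = 0.0141, blocked 0.0564). Gpnmb fell by 1.56 ± 0.29 and Hexa, the hexosaminidase α chain, fell by 1.29 ± 0.18, and neither was called under median scaling. The complement list, which does not hold Cfb (counted with the antimicrobial proteins), had 13 tested genes. Itgax alone was called, beside 3.53% of all genes called lower, with a fall of 2.17 ± 0.27 (adjusted p = 0.0219, blocked 0.0607). It was not called under median scaling. Itgax, the CD11c chain, is also a dendritic cell marker, and 5 of 8 dendritic cell markers were above background on at least 2 arrays of each group. Their summed level was 16.42 to 16.52 in naïve and 15.19 to 15.95 in re-stimulated cells, and its part in the result was not tested. Siglech and Itgax carry that sum. Siglech averaged 16.27 in naïve and 15.37 in re-stimulated cells, while Ccr7 (6.49 and 9.12), Flt3 (3.97 and 5.03) and Zbtb46 (4.05 and 4.98) had higher means in re-stimulated cells.

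Replication and mitosis genes stood lower in 30 of 32 tested members, while 49.3% of all tested genes stood higher. Their median of -1.35 was -0.65 under median scaling (-1.33 relative to all genes on that scale). Of the 32, 3 were called, all lower, against 3.53% of all genes. These were the helicase subunits Mcm2, at 8.90, 9.29 and 9.02 and 7.66, 7.76 and 7.82 (difference -1.32 ± 0.18, adjusted p = 0.0265), Mcm6 (-1.21 ± 0.22) and Mcm7 (-1.53 ± 0.26), with blocked adjusted p of 0.0599 to 0.0729, and none of the 3 was called under median scaling. The mitotic cyclin gene Ccnb2 had the largest difference, 11.68, 11.91 and 10.31 against 8.48, 9.35 and 6.90, and missed the threshold (difference -3.06 ± 0.72, adjusted p = 0.0667, blocked 0.0546). In both groups the replicate 3 array was the lowest for it. Without naïve replicate 3, 17 of 32 were called lower, against 11.1% of all genes.

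Costimulatory molecules gave 1 call in each direction among 12, against 2.37% of all genes called higher and 3.53% called lower. Tnfsf4, the OX40 ligand, was above background on 2 re-stimulated and no naïve arrays and at least 7.69-fold higher. Cd83, a marker of activated antigen-presenting cells, fell from 11.83, 12.57 and 12.91 to 9.18, 9.54 and 10.42 (difference -2.72 ± 0.42, adjusted p = 0.031, blocked 0.0546), a call that median scaling did not give. No MHC class II gene of 9 was called.

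Genes of the type I interferon response had 1 of 36 members called higher and 3 lower against naïve cells, beside 2.37% and 3.53% of all genes. Their median was -0.46, and under median scaling 0.41, or -0.28 relative to the median of all genes on that scale. Zbp1, a sensor of left-handed nucleic acid, was at 11.67, 12.02 and 11.02 in naïve and 13.71, 13.55 and 13.83 in re-stimulated cells (difference 2.12 ± 0.29, adjusted p = 0.0254, blocked 0.0648). Stat2, a subunit of the factor that interferon activates, was at 12.54, 12.82 and 12.05 and 10.42, 10.56 and 11.38 (difference -1.69 ± 0.34, adjusted p = 0.0475, blocked 0.0982). The antiviral gene Oas2 fell by 1.59 ± 0.32 and the GTPase gene Irgm1 fell by 1.78 ± 0.33. Zbp1 was called by 1 of its 2 probes. Under median scaling 3 of the 36 were called higher, Zbp1 among them, and none lower, so that Stat2, Oas2 and Irgm1 were not called. Over all probes that scale gave 1317 higher and 294 lower. Ifit2 had the largest difference, 11.22, 11.41 and 9.91 against 7.02, 8.16 and 9.34, without a call (adjusted p = 0.0767).

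Direct comparison with cells re-stimulated with Poly(I:C), a double-stranded RNA that signals through TLR3 and TRIF, placed the 2 re-stimulated states far apart in this pathway. Of 26011 probes tested 1069 were called (4.11%), 226 higher (0.869%) and 843 lower (3.24%) after Pam3CSK4. With the slide block 519 probes were called and 3950 were called without Poly(I:C) replicate 3. With 1 probe per gene 580 of 13441 genes were called (4.32%), 116 higher (0.863%) and 464 lower (3.45%). All 36 interferon response genes were called lower after Pam3CSK4, with a median difference of -3.34, and 28 to 36 were called in each alternative. Ifit2 was -6.74 ± 0.55 apart (adjusted p = 0.00307), with a mean of 8.17 after Pam3CSK4 against 14.91 after Poly(I:C). Zbp1, higher than in naïve cells after Pam3CSK4, was still -1.66 ± 0.17 apart (adjusted p = 0.00554). Ifnb1, near background after Pam3CSK4, was -8.59 ± 0.60 apart (adjusted p = 0.00234).

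Chemokine genes were called in both directions against Poly(I:C), 3 of 21 higher and 4 lower after Pam3CSK4, with a median of -0.13. With the slide block 3 were higher and 2 lower. Cxcl5 was 7.51 ± 0.67 higher after Pam3CSK4 (adjusted p = 0.00368, blocked 0.0235), Cxcl1 5.13 ± 1.00 (adjusted p = 0.0453, blocked 0.0174) and Cxcl3 3.79 ± 0.70 (adjusted p = 0.0386, blocked 0.116). Cxcl2 differed by 3.61 ± 0.79 and was not called (adjusted p = 0.0608). The interleukin-12 chains split, with Il12a 3.53 ± 0.24 higher and Il12b -4.69 ± 0.92 lower after Pam3CSK4 (adjusted p = 0.00234 and 0.0453, blocked 0.0174 and 0.124). Of 19 cholesterol genes 8 were called higher after Pam3CSK4, with Fdps at 2.58 ± 0.41 (blocked adjusted p = 0.0927), and Ch25h was called lower (-3.02 ± 0.58, blocked adjusted p = 0.0447). With the slide block 1 of the 19 was called higher, and without any 1 array 1 to 10 were, the highest without Poly(I:C) replicate 3. Of the 20 genes named in the text that were called against Poly(I:C), all 20 kept their direction with the block and 12 kept their call. Il6 did not pass the test (1.05 ± 1.03, adjusted p = 0.574).

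**Figure D5:**
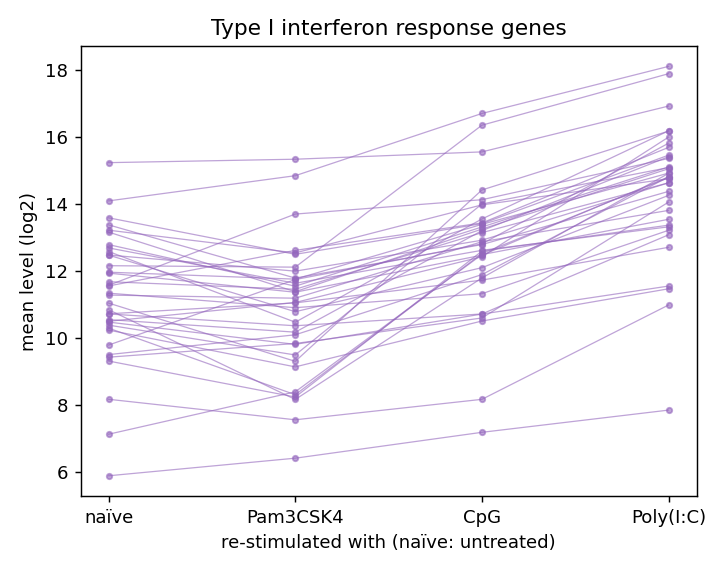
Mean log2 level of the 36 type I interferon response genes (points, lines join 1 gene) in naïve cells and after re-stimulation with Pam3CSK4, CpG or Poly(I:C), 3 arrays each. Every gene is lower after Pam3CSK4 than after Poly(I:C), with a median difference of -3.34, and than after CpG, with a median of -1.37.

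Re-stimulation with CpG, which signals through TLR9 and the same adapter MyD88, gave no calls by limma in the direct comparison, which does not show that the states were alike. Of 25208 probes 0 were called (0%), 1089 had an unadjusted p below 0.05, and the lowest adjusted p was 0.0718. With the slide block 124 probes (0.492%) and 67 genes (0.511%) were called, the probes 3 higher and 121 lower after Pam3CSK4. All 36 interferon genes were lower after Pam3CSK4 than after CpG, with a median of -1.37, while 56.2% of all tested genes were higher. Of the 36, 15 were called lower with the block, against 0.489% of all genes. Il6 was -2.74 ± 0.40 apart (adjusted p = 0.0908) and Il12b -5.45 ± 0.75 (adjusted p = 0.0818), both lower after Pam3CSK4. The labels and the methods give different doses of CpG, so the values stand side by side without a matched dose.

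Compared with the 2 usable arrays of cells given Pam3CSK4 once for 4 h, no probe of 25430 was called (0%), with or without the slide block, although 570 were under median scaling, and 3461 had an unadjusted p below 0.05. These 2 arrays differed from each other widely. Il6 was at 12.15 and 9.91 on acute replicates 1 and 3 against 13.01, 11.89 and 13.20 after re-stimulation, and Il1b at 15.85 and 11.11 against 16.14, 14.84 and 14.89. Cfb was at 9.92 and 8.45 after 1 exposure against 14.72, 13.79 and 14.38 after 2, Arg1 at 3.68 and 2.24 against 12.19, 8.72 and 7.56 and Slpi at 13.37 and 12.23 against 18.49, 16.65 and 17.92, so that for these 3 genes every re-stimulated array lay above both acute arrays. Tnf was at 16.97 and 15.87 after 1 exposure against 13.97, 13.99 and 15.49 after 2, with every re-stimulated array below both acute arrays, as was the case for Cd83 (14.41 and 13.30 against 9.18, 9.54 and 10.42). For the falls, Mamdc2 was at 12.12 and 10.19 on the acute arrays, near its naïve levels, against 5.85, 6.46 and 6.25 after re-stimulation. These orders are descriptions, since none passed the test (adjusted p = 0.128 for Cfb, 0.198 for Arg1 and 0.265 for Tnf). The share of all tested genes with such an order is not given here, so the orders do not set these genes apart.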

How the data were processed

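Of the 27 arrays 25 have deposited values, in 9 groups. The authors corrected the scanner intensity by RMA and quantile-normalized the 25 arrays in limma, and the deposited values are log2 levels. The authors' scanner files also give, for each spot, an intensity and an indicator (a score of 0 or 1) of signal well above background, which was used here to select probes. Gene names are those of the array, and 2878 of 26762 probes with an accession found in RefSeq have another symbol there.

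Groups were taken from the sample labels. Deposited log2 values were compared with limma 3.58.1 (R 4.3.3), lmFit and eBayes on the groups compared alone, over probes well above background in 2 or more replicates of 1 of them. P-values are two-sided and were adjusted by Benjamini-Hochberg over all probes tested. A call needed an adjusted p below 0.05 and 1.5-fold. For a gene with several probes, the tested probe with the highest mean over the 25 arrays was taken. Where a gene was above background on no array of a group, its fold was computed against a floor on each of those arrays. The floor was the higher of the lowest detected level and the gene's own value. Such a fold is written as "at least", and it holds on the deposited scale only. Where the gene's own value was the higher on all of those arrays, the fold is the measured one and not a lower bound. Under other processing or without 1 array the log2 difference reached 0.74 for Tnfsf4, 1.17 for Cxcl9, 1.40 for Mmp2 and -2.68 for Bex1. The fit was tested on simulated data.

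Named are the 12 largest rises and 12 largest falls among calls, up to 4 members of each list by size of change, and genes of TLR2 signalling and its main targets. Other called members of the lists, S100a9, Ltf and the block's calls were named after their values were seen. The members and gene lists were chosen with earlier results of these data known.

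Per the scanner files, same-numbered naïve and re-stimulated arrays share a slide. Their deviations from the group means correlated at 0.198, 0.274 and 0.227 over tested probes (highest between different numbers 0.0119), so the numbers pair the samples and the replicate block is the slide. Alternatives were values made again from the scanner files, other scalings and background corrections, other filters, the replicate block, fits over more groups, array weights and leaving out each array. No array had a saturated probe.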

Additional observations from a re-analysis of the deposited data

Results flagged for a closer look

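The direct comparison of cells re-stimulated with Pam3CSK4 and with Poly(I:C) differed at 1069 probes by limma, and 20 genes named above were among those called (Pam3CSK4 minus Poly(I:C), log2). Higher after Pam3CSK4 were Cxcl5 by 7.51, Cxcl1 by 5.13, Cxcl3 by 3.79, Il12a by 3.53, Csf2 by 2.94, Fdps by 2.58 and Idi1 by 2.35. Lower after Pam3CSK4 were Ifnb1 at -8.59, Ifit2 at -6.74, Cxcl10 at -6.17, Cxcl9 at -4.70, Il12b at -4.69, Ccl12 at -3.90, Irgm1 at -3.66, Stat2 at -3.47, Ch25h at -3.02, Cd83 at -2.87, Oas2 at -2.58, Atp6v0d2 at -1.67 and Zbp1 at -1.66.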

How the results depend on the processing

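The count of probes called against naïve cells depends strongly on the processing. It was 1497 as reported, 2899 with signals scaled to the 75th percentile, 2668 with normexp and quantile normalization, 291 with no detection filter, 4920 in 1 fit over all 9 groups, 6443 in a fit over 8 groups with the slide as a random effect, 6960 with array weights and 6 with the replicate block. Leaving out 1 array gave 18 (without Pam3CSK4 re-stimulated replicate 1) to 4205 (without naïve replicate 3). Against CpG the count of 0 became 101 under median scaling, 124 with the replicate block, 37 in the fit over 9 groups, and 0 to 37 without 1 array. Against Poly(I:C) the count of 1069 became 697 with no detection filter, 519 with the replicate block, 3320 in the fit over 9 groups, and 411 to 3950 without 1 array, the highest without Poly(I:C) replicate 3. Against acute cells the count of 0 became 570 under median scaling and 974 in the fit over 9 groups. The cause of these differences was not tested. Of the 88 genes named above that were called against naïve cells, all 88 kept their direction under every alternative and 4 were called under every alternative. Of the 25 not called, 23 were called under at least 1. The difference of S100a9 turned positive under median scaling (0.25), without naïve replicate 1 (1.45) or 2 (1.73) and without re-stimulated replicate 3 (2.65), and that of Ltf did so without the same arrays (0.86, 1.15 and 1.64). Without naïve replicate 3 they were -4.08 and -3.52. With 3 arrays a group, and levels near background for many of the largest changes, the size of those changes is poorly bounded.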
